A study of Homo sapiens with 6 samples.

Results

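The genes described are 31 members of the NRF2 pathway and of the antioxidant enzyme systems, chosen by name for their known function, and all 31 were found among the 60612 gene identifiers of the data. Their counts come from 6 RNA-seq libraries of U937, an established line of human myeloid cells labelled wild type and acute myeloid leukemia, which were kept in RPMI-1640 without serum for the exposure. Of these libraries, 3 received 1 µM of a compound known only as B2 for 36 h and 3 received its solvent DMSO for the same time, and both sets carry replicate numbers 1 to 3. Whether each library is a culture of its own is not said in the labels, and the p-values therefore reflect only library-to-library spread, possibly technical. Total counts ran from 61150740 to 78431054 per library.

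NRF2, the product of NFE2L2, is a transcription factor that KEAP1 holds in the cytoplasm and hands over for degradation. Oxidants and electrophiles modify KEAP1, NRF2 then enters the nucleus, pairs with a small MAF protein and binds antioxidant response elements in front of genes for glutathione synthesis, thioredoxin recycling, NADPH supply and quinone reduction. Myeloid cells produce superoxide and peroxide for defence, and superoxide dismutases, catalase, glutathione peroxidases and peroxiredoxins remove these products inside the cell.

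Granule genes of myeloid progenitors were abundant in all 6 libraries: the elastase gene ELANE lay between 625 and 1307 CPM (counts scaled to a common library total) and the protease gene CTSG between 1240 and 2365 CPM, while MPO stayed at or below 1.67 CPM. CD3D, CD3E, CD3G and MS4A1, defining genes of T and B cells, had 0 counts in every library. The libraries numbered 3 stood apart in macrophage genes. The summed level of 14 macrophage markers was 3331 and 3185 CPM in them against 514 to 1033 CPM in the other 4. Of the 10 tested markers, 8 differed between replicate numbers, all 8 higher in number 3, where 2.68% of all tested genes differed. Of the 14, 11 were highest in both libraries of number 3, as were 12.3% of all tested genes. C1QB, 1 of these 11, was near 0 (0.066 and 0.0902 CPM). APOE was lower there (0.858 and 0.438 CPM against 0.915 to 2.32 CPM), MSR1 was at 0 in both, and MRC1 was at 0 throughout. Because these are bulk libraries, more cells of a type and more RNA per cell cannot be told apart. For B2 against DMSO, log2 fold changes carried a median SE of 0.34 over the members and 0.41 over all tested genes.

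No antioxidant gene passed the test for a change with B2. Of the 31 members, 30 had enough counts to be tested, and 0 of 30 passed edgeR's quasi-likelihood test at an adjusted p below 0.05, as did 0% of all 17224 tested genes (adjusted p = 1.0 for each of the 30). At an unadjusted p below 0.05 there were 0 members, against 0.493% of all genes (0 members against 1.32% with the replicate number as a block), and DESeq2 and limma-voom also called 0 members. Point estimates were small: the median log2 fold change was -0.05 over the members, with 9 positive and 21 negative, beside a median of -0.08 over all genes. With library totals as the only scaling, 16 were positive and 14 negative. The 95% interval lay within a 2-fold change either way for 18 of the 30 members, and for 36.6% of all genes. With the replicate number as a block, it did so for 28 of the 30 members, all but ME1 and TXNRD1, and for 58.2% of all genes.

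**Figure D1:**
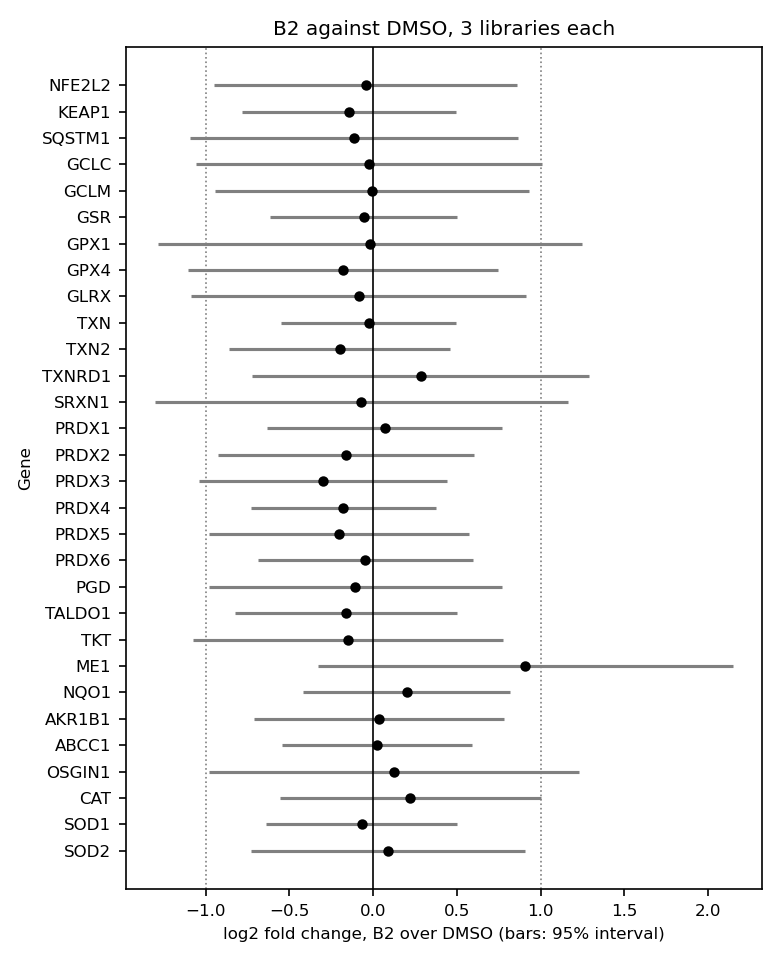
Log2 fold change of B2 over DMSO (x axis) for the 30 tested genes (y axis), with 95% intervals as bars, 3 libraries per group, dotted lines at a 2-fold change either way. Every interval spans 0, and the estimates run from -0.30 for PRDX3 to 0.91 for ME1.

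The regulators of the pathway overlapped between the groups. NFE2L2 read 15.7, 23.4 and 32.0 CPM in the B2 libraries numbered 1 to 3, and 14.9, 25.2 and 33.2 CPM in their DMSO counterparts. The 2 groups overlapped almost completely and the spread lay between the replicate numbers, with a log2 fold change of -0.04 (SE 0.39). KEAP1, the NRF2 inhibitor and oxidant sensor, read 151, 132 and 133 CPM under B2, and 197, 113 and 150 CPM under DMSO. DMSO replicate 1 was highest and DMSO replicate 2 lowest, so the B2 libraries lay inside the DMSO range (log2 fold change -0.15, SE 0.28). SQSTM1 encodes p62, an autophagy receptor that binds KEAP1 and releases NRF2, and it read 246, 236 and 481 CPM under B2, against 351, 191 and 502 CPM under DMSO (log2 fold change -0.12, SE 0.43). The levels of NFE2L2 and SQSTM1 are uncertain because exons overlap: NFE2L2 shares bases with a gene on its own strand and with AGPS (23.8 to 88.2 CPM) on the other, and SQSTM1 with MGAT4B (166 to 288 CPM) and MRNIP on the other strand, and the strand setting of the counting is not known.

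NQO1, the quinone reductase widely used as a readout of NRF2, was 37.5 ± 5.75 CPM under B2, and 32.6 ± 5.38 CPM under DMSO (mean ± SD, n = 3 each). It read 33.3, 35.1 and 44.1 CPM in the B2 libraries and 32.4, 27.4 and 38.1 CPM in the DMSO libraries, higher with B2 within each of the 3 replicate numbers. The groups nevertheless overlapped, and the log2 fold change of 0.20 (SE 0.27, 95% interval -0.42 to 0.82) was smaller than its error. NQO1, PRDX1, PRDX3 and ME1 were the 4 of 30 tested members (13.3%) whose difference had 1 direction in all 3 numbers, where 15.8% of all genes did. PRDX1, a cytosolic peroxiredoxin that removes hydrogen peroxide, read 313, 304 and 474 CPM under B2, and 302, 288 and 452 CPM under DMSO, so it differed by little in each number (0.05, 0.08 and 0.07 on the log2 scale). PRDX3, its mitochondrial relative, was lower with B2 by every pair (-0.20, -0.59 and -0.08).

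The subunits of glutamate-cysteine ligase, which makes the first and rate-limiting step of glutathione synthesis, had nearly equal group means, with an SD over the 3 libraries of 3.05 CPM under B2 and 16.1 CPM under DMSO for GCLC. GCLC, the catalytic subunit, read 22.5, 28.0 and 22.9 CPM under B2, and 12.4, 43.1 and 19.2 CPM under DMSO. GCLM, the modifier subunit, read 10.8, 10.3 and 8.37 CPM under B2, and 5.55, 15.6 and 8.56 CPM under DMSO. For both, DMSO replicate 1 was the lowest library and DMSO replicate 2 the highest, and the B2 libraries fell between them (log2 fold changes -0.03, SE 0.45, and -0.01, SE 0.41). GCLC was at -0.33 without DMSO replicate 1 and at 0.61 without DMSO replicate 2. TXNRD1, the selenoenzyme that reduces thioredoxin with NADPH, had the same low and high libraries, with 96.0, 143 and 110 CPM under B2 and 46.9, 162 and 77.8 CPM under DMSO (log2 fold change 0.28, SE 0.44). Its estimate moved to 0.87 when DMSO replicate 2 was left out and to -0.03 when DMSO replicate 1 was.

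The groups also overlapped for catalase and the superoxide dismutases. CAT, which splits hydrogen peroxide in peroxisomes, read 282, 317 and 268 CPM under B2, and 146, 351 and 247 CPM under DMSO. Here too DMSO replicate 1 was lowest and DMSO replicate 2 highest (log2 fold change 0.22, SE 0.34). SOD1, the cytosolic copper and zinc dismutase, varied little, with 152, 147 and 137 CPM against 172, 164 and 121 CPM (-0.07, SE 0.25). SOD2, the mitochondrial manganese dismutase, read 84.0, 95.1 and 140 CPM under B2, and 58.5, 115 and 126 CPM under DMSO (0.09, SE 0.36). Exons of SOD2 overlap a second gene on the same strand and WTAP on the other, so its level is uncertain.

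TXN, the cytosolic thioredoxin, was the steadiest member, at 168, 152 and 156 CPM under B2, and 167, 169 and 150 CPM under DMSO (log2 fold change -0.03, SE 0.23, 95% interval -0.55 to 0.50). Its highest library was 1.13 times its lowest. Of the remaining thioredoxin and peroxiredoxin genes, TXN2 (mitochondrial thioredoxin), PRDX2, PRDX4, PRDX5 and PRDX6 had log2 fold changes between -0.20 and -0.05. Summed over the 6 peroxiredoxins the level was 1055, 1029 and 1209 CPM under B2, and 1348, 1007 and 1153 CPM under DMSO, the highest sum being that of DMSO replicate 1.

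GPX1, the cytosolic glutathione peroxidase, read 239, 197 and 652 CPM under B2, and 430, 166 and 505 CPM under DMSO. GPX4, the peroxidase that repairs oxidized membrane lipids and holds back ferroptosis, read 352, 279 and 548 CPM under B2, and 627, 247 and 461 CPM under DMSO. Both genes were lowest in DMSO replicate 2 and overlapped between the treatments (-0.02, SE 0.55, and -0.18, SE 0.40). GPX1 moved to -0.75 without B2 replicate 3 and to 0.28 without DMSO replicate 3. GPX1 is also among the 14 members with named pseudogene copies in the data, and its 2 copies summed to between 4.92 and 27.8 CPM, so part of its reads may have been assigned elsewhere. GSR, which regenerates glutathione with NADPH, lay at 191 ± 31.7 CPM under B2, and 198 ± 5.33 CPM under DMSO (SD, n = 3 each).

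Of the NADPH-supplying enzymes, ME1, the cytosolic malic enzyme, was the 1 tested member whose groups did not overlap (3.33% of the members, and 3.56% of all genes in either direction, 1.94% with B2 higher and 1.63% with B2 lower). It read 0.583, 0.657 and 0.875 CPM under B2, and 0.322, 0.232 and 0.567 CPM under DMSO, which correspond to 43, 48 and 53 counts against 18, 18 and 44 counts. All 3 B2 libraries were above all 3 DMSO libraries, by a narrow margin over DMSO replicate 3. The log2 fold change of 0.91 (SE 0.54, 95% interval -0.33 to 2.15) did not pass the test (unadjusted p = 0.13, edgeR adjusted p = 1.0). The summed level of 9 epithelial markers, listed as a check for foreign cells, was also higher in all 3 B2 libraries. It ranged from 30.4 to 37.8 CPM in the B2 libraries and was 3.33, 11.5 and 27.3 CPM in the DMSO libraries, and none of the 9 was at 0 in all libraries. Of the 9, KRT8, KRT19 and ELF3 had groups that did not overlap, the other 6 overlapped, and 0 passed the test for B2. Their part in the ME1 values was not tested. PGD and TKT, enzymes of the oxidative and non-oxidative pentose phosphate pathway, were abundant and overlapped between groups, PGD at 861, 793 and 1454 CPM under B2, against 1115, 690 and 1544 CPM under DMSO, and TKT at 1812, 1465 and 2817 CPM against 2829, 1219 and 2716 CPM. TALDO1, a transaldolase, had a log2 fold change of -0.16 (SE 0.29).

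AKR1C1, an aldo-keto reductase strongly induced by NRF2 in epithelial cells, had few counts and was the 1 member left untested. It had 4, 11 and 6 counts in the B2 libraries numbered 1 to 3, and 0, 4 and 0 counts under DMSO, at or below 0.151 CPM, and reads may be split with its near-identical neighbour AKR1C2, which had 0.528, 0.917 and 1.02 CPM under B2, and 0, 0.464 and 0.709 CPM under DMSO. AKR1B1, aldose reductase, OSGIN1, an oxidative stress growth inhibitor, and ABCC1, a pump for glutathione conjugates, had log2 fold changes of 0.03, 0.13 and 0.02.

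Levels per kilobase of annotated exon placed the members over more than 4 orders of magnitude, the lowest level resting on the few counts of the untested AKR1C1. On that scale, PGD averaged 363 CPM per kb over the 6 libraries (233 to 521), PRDX5 276 (205 to 448), GPX1 255 (116 to 456), PRDX1 234 (189 to 311), TKT 225 (128 to 298) and GPX4 208 (122 to 311), and the ranges of these neighbours overlapped. KEAP1 at 38.8 (30.1 to 52.5) lay above NFE2L2 at 4.03 (2.49 to 5.56) with no overlap. GCLC, GCLM, OSGIN1 and AKR1B1 lay between 1.16 and 2.85, ME1 at 0.160 and AKR1C1 at 0.00676 CPM per kb. Exon length was the union over all transcripts in GENCODE 29, which understates genes with long alternative exons, SOD2 with 16493 bases among them.

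Differences between the replicate numbers were tested next. Each adjusted p is from a test of both number terms together, number 3 against numbers 1 and 2 and number 2 against number 1. It is therefore not a test of the number 3 ratio alone. In the edgeR fit with treatment and replicate number as terms, 1 of 30 members (3.33%) differed between the numbers at an adjusted p below 0.05, where 2.68% of all genes did (2.2% higher and 0.476% lower in number 3). That gene was SRXN1, sulfiredoxin, which repairs overoxidized peroxiredoxins. It read 14.7, 13.5 and 35.6 CPM in the B2 libraries numbered 1 to 3, and 14.2, 14.0 and 38.9 CPM under DMSO, so both libraries of number 3 stood far above the other 4, which were nearly equal. The level in number 3 was 2.64-fold that in numbers 1 and 2 (log2 ratio 1.40, SE 0.27, adjusted p = 0.0385), while the log2 fold change of B2 over DMSO was -0.07 (SE 0.54). The call was lost without B2 replicate 3 (adjusted p = 0.456), without DMSO replicate 3 (0.603), without DMSO replicate 1 (0.0588) and with library totals as the only scaling (0.109), while the log2 ratio stayed between 1.34 and 1.47.

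Other members were highest in number 3 without passing the test. Both libraries of number 3 were above the other 4 in 11 of 30 members (36.7%), where this held for 12.3% of all genes, and below them in 2 members (6.67%, against 12.1% of all genes). The 11 were SRXN1, GPX1, GLRX, SQSTM1, OSGIN1, PGD, NFE2L2, PRDX1, SOD2, AKR1B1 and NQO1, and the 2 were SOD1 and PRDX6. The median log2 ratio of number 3 over numbers 1 and 2 was 0.25 over the members and -0.05 over all genes. GPX1 had a log2 ratio of 1.24 (SE 0.29, adjusted p = 0.057), and it passed the threshold with RLE factors (0.0277), the stricter filter (0.0103), DESeq2 (0.000916), limma-voom (0.006), the replicate number as the only term (0.0435), counts divided by 4 (0.000291), and without B2 replicate 1 (0.00178) or DMSO replicate 1 (0.0112). GLRX, glutaredoxin, which takes glutathione off oxidized proteins, reached 65.7 and 60.8 CPM in number 3, against 26.5 to 40.1 CPM elsewhere (log2 ratio 1.04, SE 0.27, adjusted p = 0.106). SQSTM1 followed at 0.96 (SE 0.26, adjusted p = 0.106), OSGIN1 at 1.01 (SE 0.33), PGD at 0.81 (SE 0.25) and NFE2L2 itself at 0.76 (SE 0.27, adjusted p = 0.156). Each of GLRX, SQSTM1, OSGIN1, PGD and NFE2L2 passed under at least 1 alternative and not under others. With DESeq2 the adjusted p was 0.00598 for GLRX and 0.0415 for NFE2L2, and with counts divided by 4 it was 0.0401 for OSGIN1. KEAP1, TXN, TXN2, CAT and PRDX4 lay between -0.10 and 0.04. The log2 ratio of number 2 over number 1, which the test also takes in, was -0.87 for GPX1 and -0.47 for SQSTM1. It was 0.66 for NFE2L2 and -0.07 for SRXN1. The summed level of the macrophage markers given above was also highest in number 3, with APOE going the other way, and their part in these differences was not tested.

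**Figure D2:**
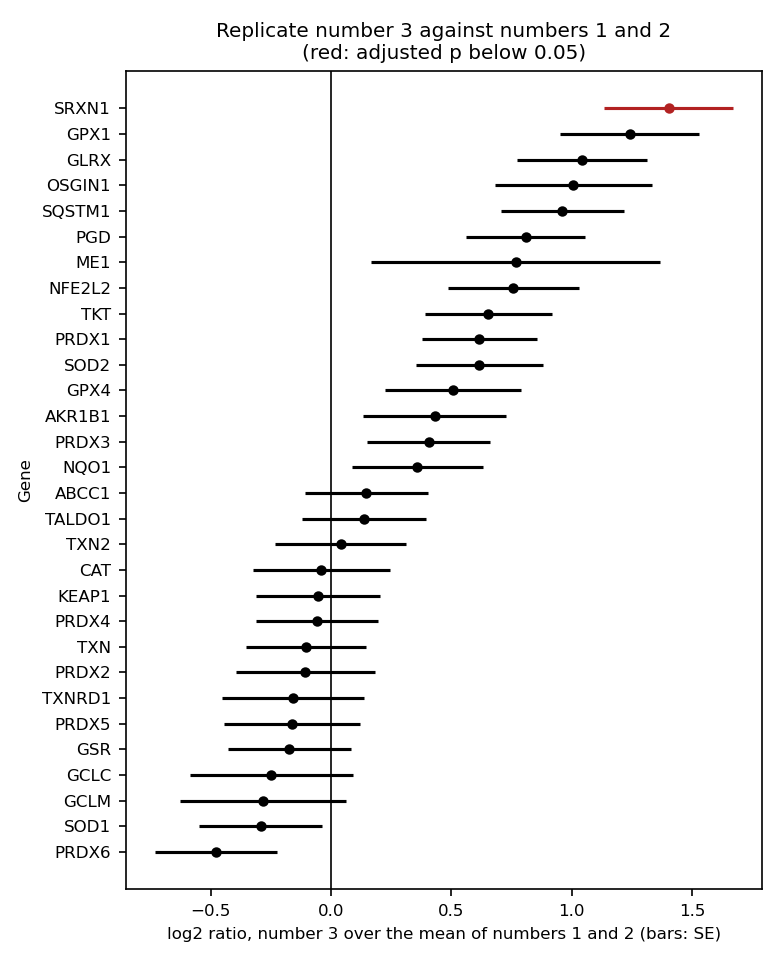
Log2 ratio of replicate number 3 over the mean of numbers 1 and 2 (x axis, bars are the SE) for the 30 tested genes (y axis), from the fit with treatment and number as terms. SRXN1, in red at 1.40, is the 1 gene with an adjusted p below 0.05 for both number terms together, and PRDX6 is lowest at -0.48.

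Among 68 other genes of the NRF2, glutathione, thioredoxin and redox systems, 64 were tested and 0 passed the test for B2, as did 0% of all genes. Of all genes, 2.68% differed between replicate numbers, 2.2% higher in number 3. Of the 64, 7 (10.9%) differed, all 7 higher in number 3. They were FTH1 and FTL, the ferritin chains that store iron and are NRF2 targets, TXNIP, which binds and inhibits thioredoxin, the cystine importer gene SLC7A11, the epoxide hydrolase gene EPHX1, TIGAR, which diverts sugar to NADPH production, and TRIM16. FTH1 read 418, 317 and 3684 CPM in the B2 libraries numbered 1 to 3, and 583, 275 and 3503 CPM under DMSO (log2 ratio of number 3 3.23, SE 0.25, edgeR adjusted p = 5.1e-05). FTL read 8916, 7216 and 22646 CPM and 13680, 6241 and 21903 CPM (log2 ratio 1.36, adjusted p = 0.0204), and SLC7A11 3.29, 4.02 and 9.24 CPM and 1.34, 3.66 and 9.46 CPM (1.70, adjusted p = 0.0361). In each the 2 libraries of number 3 were highest whatever the treatment, as was the summed level of the macrophage markers, whose part was not tested. Ferritin genes have many processed copies in the genome, so their counts are uncertain. The log2 ratios of the others were 1.63 for TXNIP (adjusted p = 0.00904), 1.58 for EPHX1 (0.018), 1.44 for TIGAR (0.0241) and 1.15 for TRIM16 (0.0337). HMOX1, heme oxygenase and a classic NRF2 target, was low, at 9.13 to 15.2 CPM under B2, and 8.15 to 16.7 CPM under DMSO, and did not pass either test.

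The smallest p for B2 in that list belonged to GPX3, a secreted glutathione peroxidase, at 0.745, 0.862 and 0.891 CPM under B2, and 0.269, 0.322 and 0.515 CPM under DMSO. All 3 B2 libraries were above the DMSO libraries, with a log2 fold change of 1.17 (SE 0.49, unadjusted p = 0.0426, edgeR adjusted p = 1.0). With ABCC3 and PIR it made 3 of 64 genes (4.69%) whose B2 libraries were all higher, where 1.94% of all genes had them higher. The next smallest p-values among positive estimates were those of AKR1C2 (1.06, SE 1.05) and GSTM3, a glutathione transferase (0.75, SE 0.84). Among negative estimates they were MGST1, a microsomal glutathione transferase (-0.36, SE 0.27), AKR1A1, an aldehyde reductase (-0.26, SE 0.31), and MAFK, a small MAF partner of NRF2 (-0.22, SE 0.26), each overlapping between groups.

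**Figure D3:**
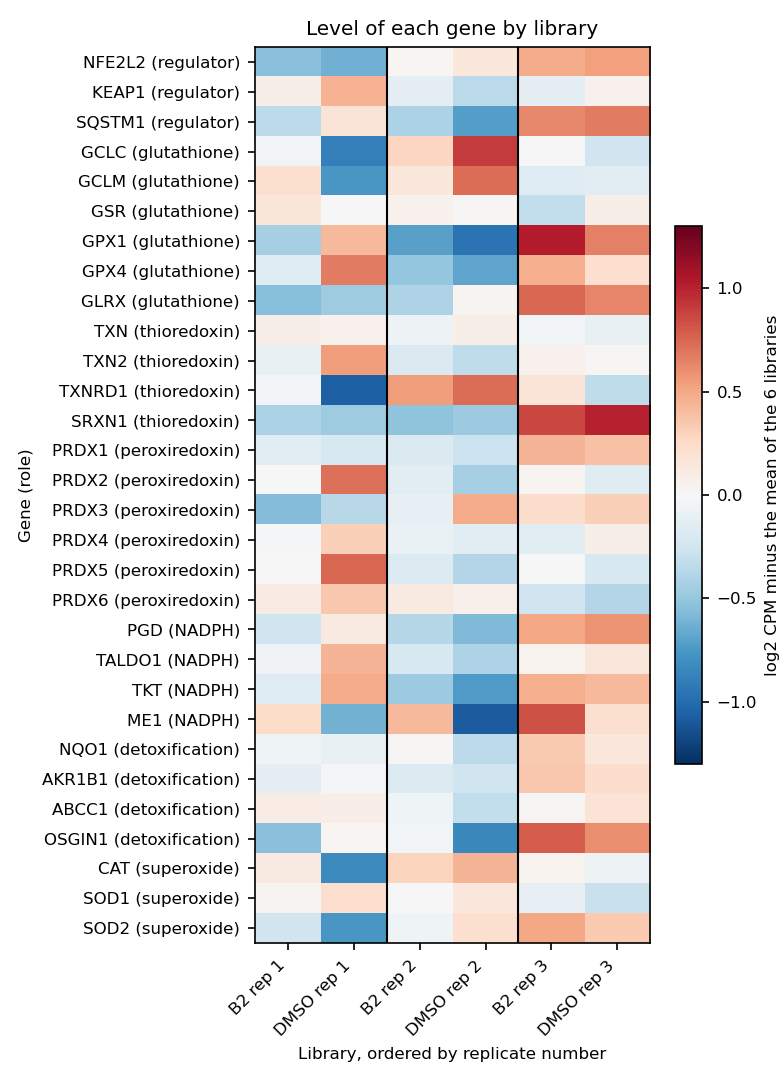
Log2 CPM of each tested gene (rows, with its role) minus its mean over the 6 libraries (columns, ordered by replicate number), red above and blue below that mean. SRXN1, GPX1, GLRX and SQSTM1 are red in both libraries of number 3, and GCLC, GCLM, TXNRD1 and CAT are blue in DMSO replicate 1.

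The difference between DMSO replicates 2 and 1 went with the base composition of the members' transcripts (Spearman -0.82 over the 30 members and -0.57 over all genes with a value), and that between B2 replicates 2 and 1 did so in the same direction (-0.62 and -0.43). GC content (the median over a gene's GENCODE 29 transcripts) ran from 35.6% for TXN to 63.1% for OSGIN1. In replicate number 1, B2 was above DMSO in 11 of the 15 members of lower GC content and below it in 13 of the 15 of higher GC content. In number 2 the direction turned, with B2 above DMSO in 5 of the 15 of lower and in 14 of the 15 of higher GC content. The Spearman correlation of GC content with the log2 difference was -0.78 in number 1, 0.65 in number 2 and -0.06 in number 3 over the 30 members, which share the same libraries, and -0.33, 0.46 and -0.05 over 17015 genes. TXNRD1 (46.6% GC) differed by 1.03 in number 1 and -0.18 in number 2, GCLC (44.2%) by 0.86 and -0.62, and GPX4 (62.8%) by -0.83 and 0.18. The part of base composition in any single member's difference was not tested.

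**Figure D4:**
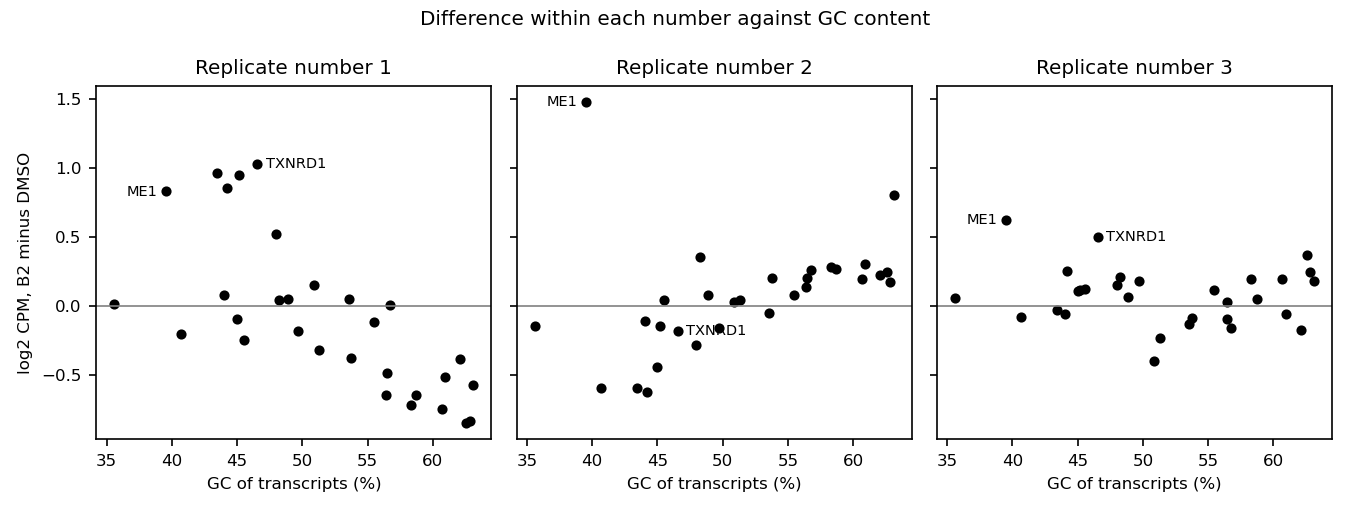
Log2 CPM of B2 minus DMSO (y axis) within replicate numbers 1, 2 and 3 (panels) against the GC content of a gene's transcripts in percent (x axis), 1 point per tested gene. Points slope downward in number 1 (Spearman -0.78), upward in number 2 (0.65) and are flat in number 3 (-0.06).

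Over the 6 libraries, the members most like SOD2 in log2 CPM were NFE2L2 (Pearson r 0.93), GLRX (0.84) and PRDX3 (0.79), and those most like NQO1 were OSGIN1 (0.92), ME1 (0.90) and AKR1B1 (0.88), given as a description of these libraries.

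NRF2 acts through the antioxidant response element, so its letters were looked for in front of the members. The search took the core TGACNNNGC on both strands in the 250 bases before each start site in RefSeq (GRCh38.p14), which gave windows for 25 of the 31 members. It was present in 5 of these 25, and in 13.2% of all genes with a window (by window, 16.2% of the members' 37 and 10.9% of all). The 7 matches are shown because they hold the letters NRF2 is known to read, although a match alone is no evidence of binding, and they are written 5′ to 3′ along the gene with the 9 letters of the match in capitals, which read in reverse complement where they begin with GC.
PGD, chr1:10398853-10398881, plus strand: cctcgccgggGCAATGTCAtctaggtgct
GCLM, chr1:93909446-93909474, minus strand: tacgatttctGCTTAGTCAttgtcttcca
ME1, chr6:83431170-83431198, minus strand: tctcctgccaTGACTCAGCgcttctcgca
TXNRD1, upstream start, chr12:104215670-104215698, plus strand: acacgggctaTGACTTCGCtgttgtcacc
TXNRD1, downstream start, chr12:104286920-104286948, plus strand: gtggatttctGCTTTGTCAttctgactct
KEAP1, first match, chr19:10502807-10502835, minus strand: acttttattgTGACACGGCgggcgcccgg
KEAP1, second match, chr19:10502784-10502812, minus strand: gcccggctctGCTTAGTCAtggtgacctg
GCLM and the second KEAP1 match hold the same 9 letters, and the ME1 match also holds TGANTCA, the AP-1 site. None of the 5 genes passed the test for B2. Of the 10 members with both number 3 libraries highest and a window, 1 (PGD) held the core, against 4 of the 15 others. Whether the core bears on either comparison was not tested. SRXN1, NQO1 and GCLC had no match in this window, which says only that these letters are not within it.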

How the data were processed

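A single table deposited by the authors holds an estimated count (expected count) for each Ensembl gene in 6 libraries, without normalization. The submitters' processing notes name HISAT2 2.0.4. Counter, build, annotation and strandedness: not given in the sources used here. All deposited counts were whole numbers, and the value 4 occurred 6465 times against 3144 for 3 and 2022 for 5, so small counts may be inexact. Names matched for 60401 identifiers, and exon lengths and overlaps come from GENCODE 29 (GRCh38).

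The filterByExpr function (count 10, total 15) kept 17224 genes. edgeR 4.0.16 under R 4.3.3 was used with TMM factors (0.86 to 1.07), glmQLFit and glmQLFTest, with treatment alone for B2 against DMSO, treatment and number for replicate numbers (both number terms together), and Benjamini-Hochberg adjustment over all tested genes at 0.05. SEs come from the coefficient and its F statistic. CPM is the count over the TMM-scaled library total, and log2 CPM uses counts plus 0.5. Scripts were tested on simulated data with 50 changed genes per fold. For B2, the treatment-only fit recovered 0 of 50 at 2-fold, 1 at 4-fold and 27 at 8-fold. With treatment and number as terms it recovered 9, 38 and 40, and 4 unchanged genes were called. For replicate numbers the fit recovered 10, 38 and 42, and 11 unchanged genes were called. A member that did not pass the test for B2 may therefore still have changed.

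Libraries that share a number deviated together from the mean of their treatment, and the deviations correlated at 0.16, 0.31 and 0.40 for numbers 1, 2 and 3, and 6 of 6 libraries matched their own number best, which meets the criterion for pairs. Values printed for B2 are nevertheless those without the block, and blocked values are given for calls and for intervals within a 2-fold change. With the block the median SE over the members was 0.26 in place of 0.34, and the median log2 fold change stayed at -0.05. The SE became 0.26 for SRXN1 and 0.28 for GPX1. The log2 fold change became 0.45 (SE 0.28) for TXNRD1, 0.16 (SE 0.32) for GCLC and 0.11 (SE 0.33) for GCLM. The sign turned for GCLC and GCLM, so the counts of positive and negative estimates given above hold only without the block. The evidence is in the counts alone. No label explains the numbering. The members and lists were chosen with earlier results of these data known. Values are given per library for members that passed a test or whose groups did not overlap and for NFE2L2, KEAP1, NQO1, GCLC, GCLM, TXN, TXNRD1, SRXN1, SOD1, SOD2, CAT, GPX1, GPX4 and PRDX1. Other pathway genes are named where they passed a test, had 1 of the 3 smallest p-values in a direction, or are FTH1, FTL, HMOX1 or SLC7A11, and 1 further gene that the rule names is not reported here. SQSTM1, GLRX, PGD, TKT, ABCC3 and PIR were given values or named after their values were seen. Alternatives were RLE factors, library totals, no filter and a stricter one (1 CPM in 3 libraries), DESeq2 1.42.0, limma-voom (limma 3.58.1), the replicate block, number 3 left out, counts divided by 4, mitochondrial genes removed and each library left out.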

Additional observations from a re-analysis of the deposited data

How the results depend on the processing

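No member passed the test for B2 under any of the 17 alternatives. With the replicate block 0 members and 0 genes passed, and no member's call changed. The block raised the members whose interval lay within a 2-fold change from 18 to 28. The number of genes called for B2 was 0 except with DESeq2 (1), without 1 library (0 to 1) and without number 3 with the replicate block (48). That last alternative was chosen after the data were seen, and 1 residual degree of freedom remains in it. The sign of the B2 estimate changed under at least 1 alternative in 26 of 30 members, in all 26 with 1 library left out and in 10 also under another setting. For replicate numbers, 461 genes and 1 member became 956 and 2 with RLE factors, 266 and 0 with library totals, 1346 and 4 with the stricter filter, 1686 and 7 with DESeq2, 1344 and 4 with limma-voom, and 2379 and 6 with counts divided by 4. With number as the only term there were 2 members. Without 1 library the counts ran from 388 to 4124 genes and from 0 to 13 members, the highest without B2 replicate 1, and each of these fits has 1 residual degree of freedom. TXNRD1 then ran from -0.33 to 0.12 and CAT from -0.20 to 0.21 for number 3 over numbers 1 and 2. Without B2 replicate 1 these log2 ratios were 0.09 for TXNRD1 and 0.21 for CAT, opposite in sign to -0.16 and -0.04 in the main fit. With counts divided by 4, TXNRD1 passed the test of both number terms together, at a number 3 ratio of -0.14. That test also takes in number 2 over number 1, where TXNRD1 had a log2 ratio of 1.18 in the main fit. The cause of these shifts was not tested. Depth limits AKR1C1, which had at most 11 counts in a library.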
